A study of Mus musculus with 12 samples.

Results

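The nuclear pore genes and the carriers that pass through the pore were examined in murine leukaemic and normal primitive bone marrow (BM) cells. Members were taken by gene name alone. They were the protein-coding mouse genes named Nup, Kpna, Ipo, Xpo or Tnpo with a number, together with Kpnb1, Xpot and Ran. The name rule found 45 genes among the 56748 genes counted. Of these, 21 encode nucleoporins and 24 encode carriers or Ran.

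The data came from 12 bulk RNA-seq libraries, 6 CTRL and 6 CML 2wk. All recipients were CD45.1 B6.SJL mice aged 8 to 12 weeks that had received 2 doses of 4.25 Gy given 3 hours apart and then BM cells of SCLtTA/BCR-ABL (DTG) donors (CD45.2). In these donors the human BCR::ABL1 transgene depends on a tetracycline (TET)-repressed transactivator expressed from Scl regulatory sequence. Every recipient drank TET for the first 2 weeks, and TET was then withdrawn for 2 weeks in CML 2wk (TET off) and kept in CTRL (TET on). Both groups therefore carried the same transgenes. The donor marrow is described as a frozen pool of many mice of both sexes, so the recipients were not independent of each other at the donor level. Donor CD45.2+Lin-Sca+Kit+ cells were sorted, and total RNA was sequenced. The labels give CTRL as male and CML 2wk as female, so labelled sex and treatment cannot be told apart.

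Traffic between nucleus and cytoplasm runs through nuclear pore complexes, ring-shaped channels built from many copies of a small number of nucleoporins. Importins bind cargo in the cytoplasm and release it in the nucleus when they meet Ran bound to GTP, whereas exportins need Ran-GTP to hold their cargo. Importin alpha proteins are adaptors that link a nuclear localisation signal to importin beta. In CML this system is of interest because the ABL1 kinase itself shuttles between both compartments and because exportin 1 can be inhibited by drugs.

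The libraries held 22804754 to 41832868 counts in CTRL and 16150817 to 25070105 in CML 2wk, a difference with p = 0.0108 (two-sided exact permutation test of 6 against 6 libraries). Counts from mitochondrial genes took 0.816% to 1.29% of CTRL and 2.26% to 2.97% of CML 2wk libraries (p = 0.00216, the smallest this exact permutation test can give). CML 2wk libraries also varied more: edgeR's biological coefficient of variation was 10.9% in CTRL, 32.6% in CML 2wk and 24.6% in CML 2wk without CML 2wk replicate 2. Of the sort markers, Kit was at 749 CPM in CTRL and 412 CPM in CML 2wk on average (log2 fold change -0.86 ± 0.10 SE), whereas Ly6a (Sca-1) did not pass the test (0.38, adjusted p = 0.066, edgeR). The remaining marker of this list, Ptprc (CD45), rose by 0.27 on the log2 scale (adjusted p = 0.0027, edgeR). The summed level of 6 mast cell or basophil markers was 66.0 to 161 CPM in CTRL and 389 to 2270 CPM in CML 2wk, with 5 of the 6 genes higher. The summed level of 8 stromal markers was 147 to 169 CPM in CTRL and 94.5 to 934 CPM in CML 2wk, with 3 higher among 7 tested. These 3 were the collagen genes Col1a1, Col1a2 and Col3a1, named here after their values were seen, and they were high only in CML 2wk replicates 2 and 4, where the list summed to 934 and 401 CPM. Col1a1, for example, was at 221 and 89.4 CPM in those libraries, with a median of 0.341 CPM in CML 2wk and 2.18 CPM in CTRL. The summed level of 6 monocyte or macrophage markers was 157 to 202 CPM in CTRL and 321 to 672 CPM in CML 2wk, with 2 higher, and that of 5 haemopoietic progenitor markers was 1675 to 1896 CPM in CTRL and 1022 to 1320 CPM in CML 2wk, with 4 lower. No gene of the mast cell and stromal lists was at 0 in every library, and CML 2wk replicate 2 was highest for both. The part of these cells in the results below was not tested. Xist, expressed from the inactive X chromosome, was at 3794 to 4425 CPM in CTRL and 2183 to 3502 CPM in CML 2wk. The Y-linked Ddx3y did not exceed 0.588 CPM in CTRL and reached 8.64 CPM only in CML 2wk replicate 2. The labelled sex of CTRL therefore does not describe the sorted cells. Ddx3y was thus low in both groups, although the donor pool is described as of both sexes, and this was not resolved. In bulk RNA, fewer expressing cells and less RNA per cell cannot be told apart.

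Expression was measured in all but 2 of the members. Kpna7, an importin alpha known from oocytes, had 0 to 4 counts per library, and Nup62cl had 0 to 1. Both failed the filter on low counts, which left 43 members to test. Levels below are in CPM, which are read counts scaled to a common library size after TMM correction, and a change is the log2 fold change of CML 2wk over CTRL from edgeR's quasi-likelihood test with its standard error (SE). Adjusted p-values are Benjamini-Hochberg values over all 18438 genes tested, and a gene is called at an adjusted p under 0.05.

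In all, 12 members rose and 19 fell, and 12 did not pass the test. With upper-quartile scaling 16 were higher and 17 lower, and 29 of the 31 calls were kept. Without CML 2wk replicate 2 all 31 were called, and without CML 2wk replicates 2 and 4, an omission added after the data were seen, 15 members were higher and 17 lower. Expression of much of the genome differed between the groups: 59.5% of all genes tested were called, 30.6% as higher and 29% as lower. Of genes with an average log2 CPM of at least 5, a level that 40 of the 43 members reached, 75.8% were called, 29.6% as higher and 46.2% as lower. Members were called in 72.1% of cases, 27.9% as higher and 44.2% as lower, which is close to the share in well-expressed genes. The median change of the members was -0.08 (-0.0095 with upper-quartile scaling), beside 0.07 over all genes tested and -0.13 in well-expressed genes. In 9 members all CML 2wk libraries lay above all CTRL libraries, and in 16 all lay below (17% and 20.6% of all genes tested). The matching shares in well-expressed genes were not computed, so these counts are not read as an excess. The summed level of the members was 7678 to 8795 CPM in CTRL and 7719 to 8853 CPM in CML 2wk, and these ranges overlap.

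The direction of change varied with the length and base composition of the transcripts, in the members as in other genes. Across the 43 members, log2 fold change fell with the GC content of the annotated transcripts (Spearman's rho = -0.66) and less with exon length (rho = -0.28). Across well-expressed genes these values were -0.35 and -0.34. They are descriptions across genes of the same 12 libraries, and genes are not independent replicates. Once both trends were removed from each library, 14 members were called higher and 8 lower, and 18 of the 31 calls remained. With the length trend alone removed, 21 were higher and 10 lower. These fits were added after the data were seen. Whether the trends arose in the cells or in the libraries was not tested. Calls that ended or were gained without them are named below.

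**Figure D1:**
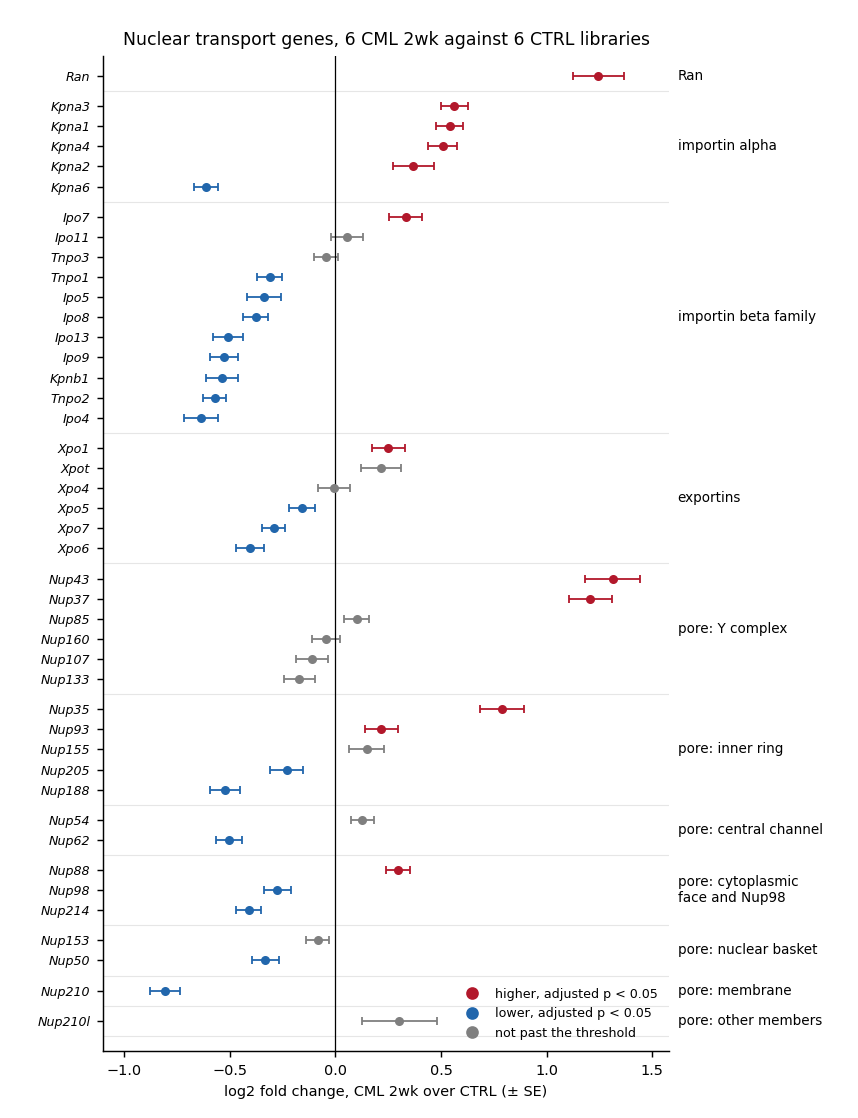
Log2 fold change of CML 2wk over CTRL (x axis, points with SE) of the 43 tested genes, grouped by role; red and blue mark genes called higher and lower, grey the others. Ran, Nup43 and Nup37 lie furthest to the right, between 1.21 and 1.31, and Nup210 furthest to the left at -0.81.

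**Figure D2:**
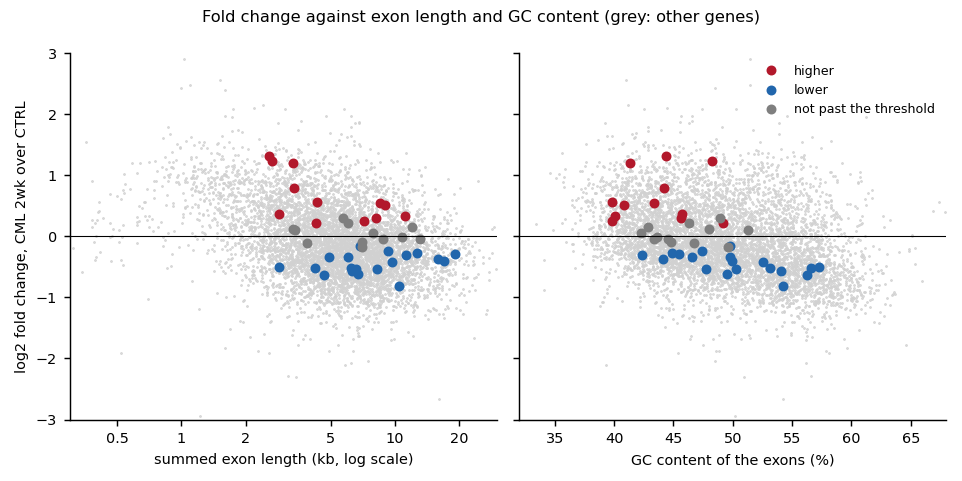
Log2 fold change (y axis) against summed exon length in kb (left, log scale) and GC content over annotated transcripts in percent (right). Coloured points are the members. Small grey points are genes with an average log2 CPM of at least 5, some of which lie outside the limits of the axes. Members that rose sit mostly at low GC content and members that fell mostly at high GC content.

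To set the sequences before these genes beside their levels, RefSeq windows (GRCm38.p6) were read for the members, of which 36 had one. The 250 bases upstream of the annotated start are shown for the 3 members with the largest rise and the 3 with the largest fall that have a window. Letters in capitals are matches, on either strand, to any of 7 short motifs. These were the E-box CACGTG, the CCAAT box, the GC box with letters GGGCGG, the ETS motif with letters CCGGAAG, the NRF1 motif with letters GCGCATG, the cell cycle homology motif with letters TTTGAA, and the TATA motif TATAAA. The only matches that overlap are those of the NRF1 motif on both strands in the window of Ran.
Ran (chr5:129019906-129020155, plus strand): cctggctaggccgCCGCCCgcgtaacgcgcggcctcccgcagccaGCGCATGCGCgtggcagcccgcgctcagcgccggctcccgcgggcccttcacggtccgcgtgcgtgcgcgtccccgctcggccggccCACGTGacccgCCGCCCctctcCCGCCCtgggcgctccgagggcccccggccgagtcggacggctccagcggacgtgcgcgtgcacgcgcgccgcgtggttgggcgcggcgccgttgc
Nup37 (chr10:88146742-88146991, plus strand): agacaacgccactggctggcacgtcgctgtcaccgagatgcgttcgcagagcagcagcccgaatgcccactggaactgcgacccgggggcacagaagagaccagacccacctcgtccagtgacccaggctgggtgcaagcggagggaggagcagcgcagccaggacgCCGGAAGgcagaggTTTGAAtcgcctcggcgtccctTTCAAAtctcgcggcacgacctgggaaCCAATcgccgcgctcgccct
Kpna4 (chr3:69127093-69127342, minus strand): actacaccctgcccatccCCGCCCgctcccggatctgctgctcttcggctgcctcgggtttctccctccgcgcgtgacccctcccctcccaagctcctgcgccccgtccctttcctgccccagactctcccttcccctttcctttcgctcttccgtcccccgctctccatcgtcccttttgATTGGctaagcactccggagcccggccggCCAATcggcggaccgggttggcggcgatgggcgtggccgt
Nup210 (chr6:91116827-91117076, minus strand): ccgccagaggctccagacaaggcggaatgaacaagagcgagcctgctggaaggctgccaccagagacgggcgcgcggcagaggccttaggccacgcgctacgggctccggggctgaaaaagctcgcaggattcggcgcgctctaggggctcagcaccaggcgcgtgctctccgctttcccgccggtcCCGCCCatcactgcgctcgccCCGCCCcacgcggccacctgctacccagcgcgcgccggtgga
Ipo4 (chr14:55635685-55635934, minus strand): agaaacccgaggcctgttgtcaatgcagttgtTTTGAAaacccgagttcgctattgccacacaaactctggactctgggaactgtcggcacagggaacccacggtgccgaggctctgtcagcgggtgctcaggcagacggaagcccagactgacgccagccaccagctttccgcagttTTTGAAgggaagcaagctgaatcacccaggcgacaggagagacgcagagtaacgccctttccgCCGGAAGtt
Tnpo2 (chr8:85036643-85036892, plus strand): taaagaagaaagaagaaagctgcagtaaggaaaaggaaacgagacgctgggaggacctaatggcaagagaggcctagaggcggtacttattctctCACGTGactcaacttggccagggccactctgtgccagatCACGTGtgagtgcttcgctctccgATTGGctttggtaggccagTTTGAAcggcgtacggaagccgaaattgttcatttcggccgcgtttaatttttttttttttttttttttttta

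Ran's window holds an E-box, the NRF1 motif on both strands and 3 GC boxes and has a GC content of 81.6%. The window of Nup37 holds an ETS match, TTTGAA on each strand and a CCAAT match 20 bases before the start. Nup210's window, by contrast, has 2 GC boxes and no other match. The window of Tnpo2 holds 2 E-boxes, a CCAAT match and TTTGAA.

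Over the first window of each gene, the E-box occurred in 7 of 36 members (19.4%) and in 6.05% of all 27025 genes with a window. GCGCATG was found in 8 members (22.2%) and in 3.32% of all, and GGGCGG in 24 members (66.7%) and in 32.9% of all. The members' windows were also richer in GC, with a median of 64.4% against 52%. The 27025 genes were not limited to those expressed or tested here, so they are not a matched background. Nup43, Nup35, Kpna1 and Kpna3, which rose, and Kpna6 and Xpo7, which fell, had no window. Of the 8 members with a window that rose, 3 had an E-box, 6 a CCAAT match and 1 the NRF1 match. Of the 17 with a window that fell, 2 had an E-box, 8 a CCAAT match and 4 the NRF1 match. These matches are descriptions of the letters in the windows and were given no test.

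Ran, the small GTPase whose nucleotide state sets the direction of transport, was the most abundant member per length and changed most in absolute level. Its level was 326 to 426 CPM in CTRL (median 390) and 679 to 1164 CPM in CML 2wk (median 873). Every CML 2wk library was above every CTRL library. On the log2 scale the rise was 1.24 ± 0.12 (adjusted p = 8.0e-07, edgeR). It was 1.06 with the length and GC trends removed. Per kb of exon, Ran stood at 145 ± 14.2 CPM in CTRL and 343 ± 68.9 CPM in CML 2wk (mean ± SD, n = 6). A processed pseudogene 97.3% identical to Ran, Gm13461, held 355 counts over the 12 libraries against 179595 for Ran.

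Importin alpha genes divided. Of the 5 tested, Kpna1, Kpna2, Kpna3 and Kpna4 rose and Kpna6 fell. Among well-expressed genes, 75.8% were called, 29.6% as higher and 46.2% as lower. All encode adaptors for classical nuclear localisation signals and differ in the cargoes they prefer.

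Kpna3 was at 150 to 180 CPM in CTRL (median 171) and 227 to 275 CPM in CML 2wk (median 245), a change of 0.56 ± 0.06 (adjusted p = 3.6e-06, edgeR). Kpna1 had 88.4 to 106 CPM in CTRL (median 94.3) and 129 to 156 CPM in CML 2wk (median 137), a change of 0.54 ± 0.06. Kpna4 had 183 to 211 CPM in CTRL (median 190) and 238 to 314 CPM in CML 2wk (median 276), which gave 0.51 ± 0.07. In these 3 genes no library of one group entered the range of the other, as in 17% of all genes tested. With both trends removed Kpna3, Kpna1 and Kpna4 were still higher (0.29, 0.61 and 0.50). Kpna2, whose transcript is known to accumulate towards mitosis, was at 106 to 143 CPM (median 120) and 138 to 201 CPM (median 145), with overlapping groups and a change of 0.37 ± 0.10 (adjusted p = 0.0048, edgeR). With both trends removed its change was 0.13 and was no longer called (adjusted p = 0.22). The summed level of 12 G2 and M phase genes was 3516 to 4244 CPM in CTRL and 2086 to 2612 CPM in CML 2wk, with 3 of them higher and 6 lower. Abundant genes weigh most in this sum. The mean log2 CPM of the 12 genes overlapped, at 7.15 to 7.42 in CTRL and 6.82 to 7.16 in CML 2wk. The part of these genes in the level of Kpna2 was not tested.

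Kpna6 went the other way. It was at 91.6 to 98.8 CPM in CTRL (median 97.2) and 57.5 to 68.9 CPM in CML 2wk (median 62.3). All CML 2wk libraries lay below the CTRL range, and the change was -0.61 ± 0.06 (adjusted p = 5.5e-07, edgeR). With both trends removed it was still lower (-0.36, adjusted p = 0.00010).

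The balance within the family was tested as the log2 ratio of each pair of genes in each library, over 25 pairs of importin alpha and Y complex genes together (two-sided exact permutation, adjusted over the 25). All 4 ratios to Kpna6 shifted, by 0.98 to 1.18 on the log2 scale. Each had an adjusted p of 0.0045 (exact permutation), which stands for the smallest p this test can give. Kpna1, Kpna3 and Kpna4 lay wholly above their CTRL ranges and Kpna6 wholly below, so their ratios to Kpna6 had to separate. No length or GC trend was removed from the ratios. The ratio of Kpna1 to Kpna6, for example, was -0.01 ± 0.08 in CTRL and 1.14 ± 0.09 in CML 2wk (mean ± SD, n = 6). Among the other 6 pairs, only Kpna2 to Kpna3 passed, with a shift of -0.20 (adjusted p = 0.032, exact permutation). The ratio of Kpna1 to Kpna3 differed by -0.02 ± 0.06 (SE).

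**Figure D3:**
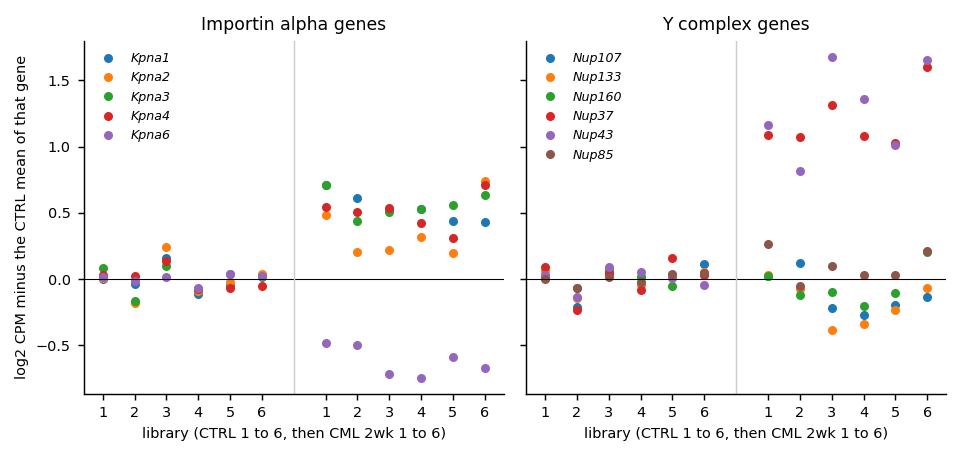
Log2 CPM of each gene minus its own CTRL mean (y axis) in CTRL libraries 1 to 6 and CML 2wk libraries 1 to 6 (x axis), for importin alpha genes (left) and Y complex genes (right). Kpna6 lies below 0 in all 6 CML 2wk libraries while the other importin alpha genes lie above, and Nup37 and Nup43 stand apart from the other Y complex genes.

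In the importin beta family, which carries cargo through the channel directly or with an adaptor, 8 of 11 genes fell, 1 rose and 2 did not pass the test. The median change was -0.38. Beside this, 46.2% of well-expressed genes fell. Kpnb1, importin beta itself, was at 574 to 686 CPM in CTRL (median 676) and 385 to 504 CPM in CML 2wk (median 449). The groups did not overlap, and the change was -0.54 ± 0.07 (adjusted p = 2.3e-05, edgeR). It remained called with both trends removed, at -0.35.

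Ipo9, an importin of histones, was at 176 to 192 CPM in CTRL (median 183) and 111 to 142 CPM in CML 2wk (median 131), a change of -0.53 ± 0.07. Tnpo1, the transportin that carries several RNA-binding proteins, was at 486 to 545 CPM (median 510) and 364 to 438 CPM (median 418), a change of -0.31 ± 0.06. Both were still lower with length and GC trends removed, at -0.19 and -0.22, as were Ipo5 and Ipo8 (-0.23 and -0.18). For Tnpo1, Ipo5 and Ipo8 the length trend alone brought the change to between -0.01 and -0.13, which was not called.

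The falls of 3 further genes of this family ended when both trends were removed. Ipo4 was at 25.3 to 29.6 CPM in CTRL (median 26.8) and 15.7 to 20.3 CPM in CML 2wk (median 17.4), a change of -0.64 ± 0.08 that became -0.18 (adjusted p = 0.12). Tnpo2 was at 106 to 113 CPM (median 108) and 65.5 to 78.7 CPM (median 74.7), a change of -0.57 ± 0.06 that became -0.13 (adjusted p = 0.054). Ipo13 was at 36.8 to 43.6 CPM (median 38.6) and 24.6 to 31.1 CPM (median 27.2), a change of -0.51 ± 0.07 that became -0.09 (adjusted p = 0.24). In all 3 genes the groups did not overlap, as in 20.6% of all genes tested, which lay lower. Ipo4 shares 55.3% of its exon bases with the overlapping gene Gm49378, which held 17 counts in all, and Tnpo2 shares 10.6% with an opposite-strand transcript of 1046 counts. As the strand setting of the counting is not given, reads from opposite strands cannot be told apart.

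Ipo7, which imports ribosomal proteins among other cargoes, was the exception in this family. It was at 408 to 496 CPM in CTRL (median 471) and 519 to 693 CPM in CML 2wk (median 575). All CML 2wk libraries were higher, and the change was 0.33 ± 0.08 (adjusted p = 0.0021, edgeR). It was 0.35 with both trends removed. The remaining members of the family, Tnpo3 and Ipo11, had changes of -0.04 ± 0.06 and 0.06 ± 0.07 and did not pass the test. With the length trend removed both were called higher (0.26 and 0.32), and with both trends removed neither was.

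Of 6 exportins, 1 rose, 3 fell and 2 did not pass the test, and the changes lay between -0.41 and 0.25. Of well-expressed genes, 29.6% were called higher and 46.2% lower. Xpo1, the main exporter of proteins with a leucine-rich export signal, was at 390 to 454 CPM in CTRL (median 428) and 447 to 594 CPM in CML 2wk (median 486). The groups overlapped slightly. The change was 0.25 ± 0.08 (adjusted p = 0.012, edgeR), and with both trends removed it was 0.16 and not called (adjusted p = 0.12). Xpo6, which exports actin, fell by 0.41 on the log2 scale and Xpo7 fell by 0.29. Xpo5, the exporter of microRNA precursors, fell by 0.16 with overlapping groups and was called in 10 of 24 alternatives. None of these falls was called once either trend fit was used. The sign of Xpo5 turned in both of those fits (0.09 and 0.11), and that of Xpo6 with both trends removed (0.02). The tRNA exporter Xpot, at 181 to 211 and 196 to 278 CPM, had a change of 0.22 ± 0.09 (adjusted p = 0.059, edgeR), which was called with the length trend removed (0.43) and with both removed (0.31, adjusted p = 0.012). Xpo4 had a change of -0.01 ± 0.08, was called higher with the length trend removed (0.29, adjusted p = 0.012), and was not called with both removed (0.13).

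**Figure D4:**
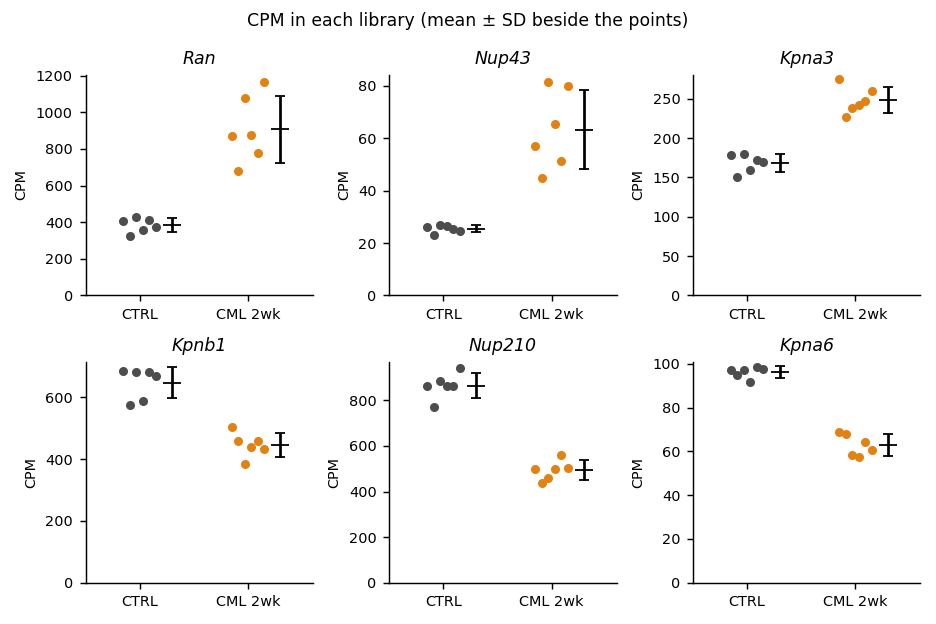
CPM (y axis, from 0) in each CTRL and CML 2wk library (points, 6 a group) with the mean and SD beside them, for 3 members that rose (top) and 3 that fell (bottom). In all 6 genes the groups do not overlap, as in 17% (higher) and 20.6% (lower) of all genes tested. The CML 2wk points of Ran and Nup43 spread more widely than those of CTRL.

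Among nucleoporins, 5 of 20 rose (25%), 7 fell (35%) and 8 did not pass the test, beside 29.6% higher and 46.2% lower in well-expressed genes. The Y complex, the scaffold that forms the outer rings of the pore, held the largest rise of all members and the third largest, with Ran between them. Nup43 was at 23.2 to 27.0 CPM in CTRL (median 25.8) and 44.8 to 81.4 CPM in CML 2wk (median 61.2), a change of 1.31 ± 0.13 (adjusted p = 1.0e-06, edgeR). Nup37 was at 25.4 to 33.3 CPM (median 30.7) and 61.1 to 90.6 CPM (median 63.4), a change of 1.21 ± 0.10 (adjusted p = 2.4e-07, edgeR). Both encode small peripheral subunits of the complex, and their levels did not overlap between groups. With both trends removed they were 0.95 and 0.86.

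The other 4 genes of the Y complex list used here did not pass the test. Nup98, which was called lower, was counted with the cytoplasmic face and is not in this list or its ratios. Nup107, a core scaffold subunit, was at 94.5 to 118 CPM in CTRL (median 111) and 90.6 to 119 CPM in CML 2wk (median 97.6), a change of -0.11 ± 0.08 (adjusted p = 0.23, edgeR). Nup133, Nup160 and Nup85 had changes of -0.17, -0.05 and 0.10. Their calls depended on the fit: Nup133 was called in 8 of 24 alternatives, DESeq2 among them, Nup160 was called higher with the length trend removed (0.24, adjusted p = 0.021), and Nup85 was called higher with both removed (0.16, adjusted p = 0.040). All 8 ratios of Nup37 or Nup43 to one of these 4 genes differed between the groups, by 1.10 to 1.46 on the log2 scale. Each had an adjusted p of 0.0045 (exact permutation), again from the smallest p the test can give. These ratios largely restate the rises of Nup37 and Nup43 in the same libraries, and no trend was removed from them. The ratio of Nup37 to Nup43 differed by -0.08 ± 0.10 (SE, adjusted p = 0.49, exact permutation). Pairs among the other 4 genes were not all level. Nup133 to Nup85 shifted by -0.27 (adjusted p = 0.012, exact permutation) and Nup160 to Nup85 by -0.15 (adjusted p = 0.023, exact permutation). The rest of these pairs did not pass. Per kb of exon, Nup37 and Nup43 stood at 9.01 ± 0.843 and 9.95 ± 0.542 CPM in CTRL, below Nup85 at 34.2 ± 0.959 CPM (mean ± SD, n = 6). In CML 2wk they reached 20.8 ± 3.45 and 24.7 ± 5.87 CPM per kb, while Nup85 was at 36.7 ± 3.12 CPM per kb. Sec13, a Y complex subunit that the name rule does not take and that also coats COPII vesicles, rose by 1.20 ± 0.11 from 60.1 to 138 CPM (adjusted p = 5.1e-07, edgeR). Seh1l, another Y complex subunit outside the name rule, had a change of -0.02 ± 0.09.

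The inner ring, which lines the pore at the membrane, was mixed. Nup35 was at 12.0 to 14.8 CPM in CTRL (median 13.0) and 17.5 to 26.3 CPM in CML 2wk (median 23.4), without overlap and with a change of 0.79 ± 0.11 (adjusted p = 1.5e-05, edgeR). It was 0.56 with both trends removed. A copy 99.6% identical to Nup35, Gm4353, held 45 counts against 5174. Nup93, the linker of the ring, was at 71.8 to 85.8 CPM (median 84.1) and 83.4 to 112 CPM (median 91.8), a change of 0.22 ± 0.08 (adjusted p = 0.025, edgeR) that was not called without CTRL replicate 2 or 4 or CML 2wk replicate 1 or 6. Nup188, a large scaffold protein, was at 136 to 155 CPM (median 147) and 83.2 to 113 CPM (median 105), a change of -0.52 ± 0.07 that ended with both trends removed (-0.13, adjusted p = 0.23). Its relative Nup205 fell by 0.23 on the log2 scale and was called in 19 of 24 alternatives, and its sign turned with the length trend removed (0.06) and with both removed (0.05). Nup155 had a change of 0.15 ± 0.08 and did not pass the test and was called with the length trend removed (0.46) and with both removed (0.27, adjusted p = 0.022).

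Nucleoporins of the channel and of its cytoplasmic side carry the repeats that transport receptors touch, or anchor those that do. Nup62, the centre of the channel, was at 122 to 139 CPM in CTRL (median 131) and 79.2 to 98.0 CPM in CML 2wk (median 94.1). The groups did not overlap, and the change of -0.50 ± 0.06 (adjusted p = 6.9e-06, edgeR) was -0.22 with both trends removed and still called. Its partner Nup54 had a change of 0.13 ± 0.05 (adjusted p = 0.057, edgeR) and was called with the length trend removed (0.15, adjusted p = 0.033).

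Nup88, which holds the cytoplasmic filaments, was at 85.2 to 98.8 CPM (median 93.3) and 108 to 126 CPM (median 112), a change of 0.30 ± 0.06. It was 0.46 with both trends removed. Nup214, a partner of Nup88 and known from leukaemic fusion genes, was at 143 to 165 CPM (median 151) and 101 to 126 CPM (median 115), a change of -0.41 ± 0.06. With both trends removed its sign turned (0.07, adjusted p = 0.41). Nup98, also known from leukaemic fusions, was at 253 to 276 CPM (median 268) and 196 to 247 CPM (median 221), a change of -0.27 ± 0.06, and with the length trend removed its sign turned too (0.03, adjusted p = 0.73). With both removed Nup98 was not called (-0.07). No library of either group entered the other group's range in these 3 genes. Of all genes tested, 17% separated in this way as higher and 20.6% as lower.

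In the nuclear basket, which faces the chromatin, Nup50 fell by 0.33 on the log2 scale and was still lower with both trends removed (-0.19). Nup153 was at 269 to 305 CPM (median 285) and 253 to 294 CPM (median 271), a change of -0.08 ± 0.06 that did not pass the test (adjusted p = 0.21, edgeR). With the length trend removed it was called in the opposite direction (0.16, adjusted p = 0.028).

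Nup210, a membrane-spanning nucleoporin whose level differs between cell types, had the largest fall of all members. It was at 770 to 944 CPM in CTRL (median 863) and 439 to 562 CPM in CML 2wk (median 500). All CML 2wk libraries were below all CTRL libraries, and the change was -0.81 ± 0.07 (adjusted p = 3.3e-07, edgeR). Per kb it was second to Kpnb1 among the members other than Ran in CTRL, at 82.5 ± 5.34 CPM, and it was at 47.2 ± 4.04 CPM in CML 2wk (mean ± SD, n = 6). The exons of Nup210 measure 10.5 kb, and its annotated transcripts have a GC content of 54.2%. With the length trend removed the change was -0.51 and called, and with both trends removed it was -0.21 and not called (adjusted p = 0.056). Its paralogue Nup210l was low, at 4.42 to 5.55 CPM in CTRL and 3.59 to 8.09 CPM in CML 2wk, and did not pass the test. It was called higher with the length trend removed (0.51, adjusted p = 0.032) and with both removed (0.49, adjusted p = 0.043).

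**Figure D5:**
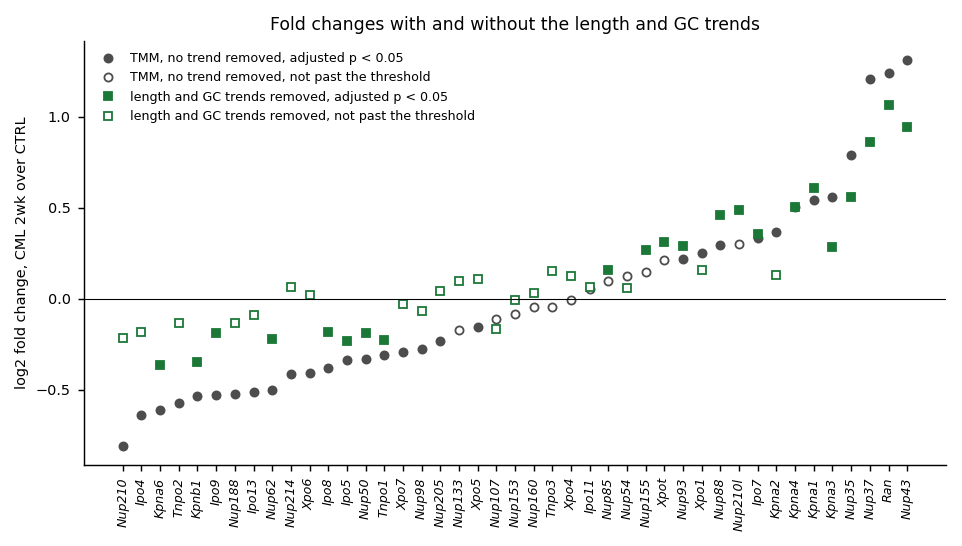
Log2 fold change (y axis) of the 43 tested genes, ordered along the x axis by their change, from the fit with no trend removed (grey circles) and with the exon length and GC trends of each library removed (green squares); filled symbols are called. The green squares lie nearer to 0 for most genes that fell, and Nup210 moves from -0.81 to -0.21.

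The partners of these genes that carry other names were read from lists of pore, Ran cycle and mRNA export genes. Their counts stand beside 30.6% higher and 29% lower of all genes tested, and 29.6% and 46.2% of well-expressed genes. Of 10 further pore genes, 2 rose, 5 fell and 3 did not pass the test. Besides Sec13, the mRNA export factor Rae1 rose by 0.16. The membrane anchor Pom121 (-0.67), Aaas (-0.46) and Tpr of the nuclear basket (-0.43) had the largest falls. Of 9 tested genes that work with Ran or as further carriers, 4 rose, 2 fell and 3 did not pass. The rises included Ranbp1, a Ran-GTP-binding cofactor of GTP hydrolysis (0.69), Hikeshi, the Hsp70 importer (0.45), and Nutf2, which returns Ran to the nucleus (0.35). The falls were Ranbp3 and Rangap1, the activator of Ran's GTPase (-0.43 each). With both trends removed, Sec13 (1.18), Ranbp1 (0.34), Hikeshi (0.37), Nutf2 (0.24), Aaas (-0.34) and Tpr (-0.26) were still called, whereas Rae1, Pom121 (-0.09), Ranbp3 (0.11) and Rangap1 (0.02) were not, and the sign of the last 2 turned. Rcc1, the exchange factor that loads Ran with GTP, did not pass the test (0.08 ± 0.08) and was called higher with both trends removed (0.39, adjusted p = 0.0012).

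Of 16 mRNA export genes, 9 rose, 4 fell and 3 did not pass the test. Beside this, 30.6% of all genes tested were called higher and 29% lower, and 29.6% and 46.2% of well-expressed genes. Here too close relatives differed. The helicase gene Ddx39a rose by 1.01 ± 0.08 and its paralogue Ddx39b fell by 0.45 on the log2 scale. The export receptor gene Nxf1 fell by 0.39 on the log2 scale while its cofactor Nxt1 rose by 0.80. Thoc1 and Thoc7 of the THO complex rose by 0.94 and 0.82, and Thoc2, its large scaffold, fell by 0.29 on the log2 scale. Ddx19b, a helicase gene, had a change of -0.34. With both trends removed, the rises of Ddx39a, Thoc1, Thoc7 and Nxt1 and the falls of Nxf1 and Thoc2 were still called, while Ddx39b (-0.14, adjusted p = 0.051, edgeR) and Ddx19b were not. A pore gene listed under an older name, Nupl1 (Nup58), had 0 to 5 counts per library. The annotation places Gm49336 over it, with 1872 to 3862 counts per library, so no level of Nup58 is given.

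The spread between libraries was wider in CML 2wk for 38 of the 43 members. The median SD of log2 CPM was 0.133 in CML 2wk and 0.0856 in CTRL, beside 0.171 and 0.0854 in well-expressed genes.

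Set in order of level per kb of exon, Ran, Kpnb1, Nup210, Ipo5 and Xpo1 led the members in CTRL. The means of the last 2 of these were 72.4 ± 5.61 and 59.2 ± 3.60 CPM per kb (SD, n = 6). In CML 2wk, Ran was followed by Xpo1 at 70.4 ± 8.17, Kpnb1 at 67.7 ± 5.95, Kpna3 at 57.8 ± 3.92 and Ipo5 at 57.2 ± 6.14 CPM per kb. Within these SDs, Xpo1 and Kpnb1 could not be separated in CML 2wk, nor could Kpna3 and Ipo5, whereas Kpnb1 stood at 98.2 ± 7.80 CPM per kb in CTRL, above Xpo1 by more than either spread. At the low end were Nup35 at 3.91 ± 0.322 and Nup210l at 0.855 ± 0.0851 CPM per kb in CTRL.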

How the data were processed

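RNA-seq was performed on 12 libraries of sorted donor Lin-Sca+Kit+ cells (6 CTRL, 6 CML 2wk), grouped by the sample labels. The values the authors deposited are whole-number read counts by Ensembl gene, without normalisation. The study's methods name FastQC, Trim Galore!, HISAT2, featureCount and hg38, whereas the submitters' processing notes name FastQC 0.11.9, fastp 0.23.2, STAR 2.7.10a, featureCounts 2.0.1, DESeq2 1.36.0 and GRCm39. The identifiers are murine. Strand and multi-mapping settings are not given in the sources used here, so values of overlapping genes and close copies are uncertain, and the human transgene was not counted.

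Symbols were matched for 52073 of 56748 identifiers. Exon length (union of exons) and GC content came from GENCODE M21 (GRCm38), and promoter windows from RefSeq (GRCm38.p6). GC content was taken over all annotated transcripts of a gene, so an exon shared by several transcripts counts several times. Counts were tested with edgeR 4.0.16 in R 4.3.3 (quasi-likelihood, TMM, filterByExpr, 18438 genes), with a Benjamini-Hochberg threshold of 0.05. CPM uses TMM-scaled library sizes. Ratios were log2 ratios of counts with 0.5 added, compared by exact permutation. DESeq2 1.42.0, limma 3.58.1 (voom), other scalings and filters, omission of libraries, a replicate block and removal of length and GC trends (splines with 5 degrees of freedom per library, as offsets) were alternatives. Python 3.11.15, pandas 2.3.3, scipy 1.17.1 and matplotlib 3.10.9 were used for summaries. The procedure was tested on simulated data of this comparison: at a log2 fold change of 1, 81 of 100 changed genes were called, at 0.5 it was 37 of 100, all in the right direction, with 4 of 18238 unchanged genes called (18017 genes run). With a simulated length and GC trend, 33.9% of 17357 unchanged genes were called, and 0.0346% after its removal (17554 genes run). Reliability of the calls in the measured libraries, where 59.5% of genes tested were called and CML 2wk varied more, was not tested. How well the removal works on the trends of the measured libraries was not tested either.

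The members and gene lists were chosen with earlier results of these data known. Full values are given for 26 members: 13 fixed names and up to 10 with the largest change each way. Partner genes are the 3 largest changes each way per list. Seh1l, Rcc1, Nxt1 and Thoc2 were named after their values were seen. No comparison of the libraries by chi-square fell within sampling noise (lowest 4.07 per degree of freedom). Nothing in the labels says that each library is 1 mouse, so p-values measure the spread between these libraries. Where a library holds no count, up to 3 counts remain possible by counting error alone.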

Additional observations from a re-analysis of the deposited data

Results flagged for a closer look

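Of 54 groups of 6 CPM values examined for a value far from the rest (Dixon's test), 2 were marked, where chance gives about 2.7. Nup107 in CTRL replicate 2 was at 94.5 CPM, with the next lowest CTRL library at 110 CPM. Nup88 in CML 2wk replicate 6 was at 126 CPM, with the next highest CML 2wk library at 113 CPM. Neither gene changed sides of the threshold when that library was left out. No group was marked for CML 2wk replicate 2, the library with the highest mast cell and stromal markers.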

How the results depend on the processing

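Over 24 alternatives, 3 of them chosen after seeing the data, 602 of 624 values of the 26 fully described members kept their direction and their side of the threshold. There were 18 calls lost, 1 gained and 3 reversals. With the length trend removed, 21 members were higher and 10 lower and their median log2 fold change was 0.13. With both length and GC trends removed, 8 were lower and the median was 0.065. The reversals were Nup153 (0.16) and Nup98 (0.028) without the length trend and Nup214 (0.067) without both. With upper-quartile scaling 16 members were higher and 17 lower (median -0.0095), with no change of sign among the 31 called. Leaving out 1 library at a time gave 11 to 14 members higher, 18 to 21 lower, medians of -0.11 to -0.07 and 10185 to 12007 genes called, the last without CML 2wk replicate 2. Nup93 was not called by DESeq2, with no filter on low counts, in replicates 1 to 5 alone, or in 4 of the fits that leave out a library, and Xpo1 was not called with no filter. Nup107 was called lower only without CML 2wk replicate 2 (-0.17, adjusted p = 0.042, edgeR). Of the 31 calls, 14 held under every alternative. Same-numbered libraries were not paired: their deviations correlated between -0.13 and 0.07, and 1 of 6 numbers matched best with itself. With the replicate block, 12 members were higher, 18 lower, the median was -0.09 and 9975 genes were called, beside 10976 without it. Kpna7 and Nup62cl failed the filter on low counts and have no value here.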
